A study of Bos taurus with 2 samples.

Results

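The genes described here build the machinery that brings new secretory proteins into the endoplasmic reticulum (ER) and sends them out again. They are 38 genes for the signal recognition particle (SRP) and its receptor, the Sec61 channel, the translocon-associated protein (TRAP) complex, signal peptidase, oligosaccharyltransferase (OST) and the COPII coat. The members were taken by gene symbol, from the gene name of a probe or from the current symbol of its RefSeq entry. Of the 38 genes, 37 had at least 1 probe and all 37 were measured on both arrays, among 12245 genes measured in all. SRPRB, the membrane anchor of the SRP receptor, had no probe that met the rule and is not described. Together the members had 89 of 43653 probes, and 85 of these were measured on both arrays.

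One array held mammary gland RNA labelled mastitis and one held mammary gland RNA labelled normal, both from female Chinese Holstein cattle. By the series description and the methods the tissue came from adult cows in late lactation with clinical mastitis (3 cows) and from cows in late lactation without mastitis (3 cows), but the cow or cows behind each array are not named. All animals had the same ration type and none had received recombinant somatotropin. Antibiotics had been used in the cows with mastitis only, so that disease and its treatment cannot be told apart. With 1 array per condition the differences have no replicate check and were not tested. In these bulk samples, fewer cells of a type and less RNA per cell cannot be told apart.

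A secretory protein is recognised by SRP as its signal sequence leaves the ribosome, and the SRP receptor docks the complex at the ER membrane. The chain then enters the ER through the Sec61 channel, which TRAP accompanies, while signal peptidase removes the signal sequence and OST attaches N-linked glycans. Folded cargo leaves in vesicles coated by COPII, which the small GTPase SAR1 starts, SEC23 and SEC24 form as the inner coat, and SEC13 and SEC31 close as the outer coat. The lactating mammary epithelium sends caseins and whey proteins through this route, and plasma cells use it for antibodies.

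Both arrays lay on one slide and were read in a single colour. Values are net signals divided by the 75th percentile of the array, which was 210 for mastitis and 128 for normal, and are called scaled signals below. A scaled signal of 1 is thus that of the probe at this percentile, and scaled signals are compared between arrays for the same probe only. Measured probes are those that exceeded the mean of the negative control spots by over 2.6 SD on both arrays. This put 70.2% of probes above background in mastitis tissue and 67.0% in normal tissue. Gene ratios are log2 ratios of mastitis over normal, averaged over the measured probes of a gene. The SD over probes of a gene, pooled over 6420 genes, was 0.45 on the log2 scale, and that over repeated spots of a probe was 0.16. Both are technical, and neither covers differences between cows. No member probe held saturated pixels.

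On the scaled signals the machinery as a whole was lower in mastitis than in normal tissue. Its median was above 0 where no scaling was applied. Of the 9 lowest members, 7 belong to complexes at the ER membrane, which hold 21 of the 37 measured members. Of 37 measured members, 9 were at least 2-fold lower, a share of 24.3%, where 9.14% of all genes were at least 2-fold lower. With probes near background kept as well, 10 of 37 members were, where 23.8% of 16959 genes were, and the distance between the medians of members and all genes was -0.19. The 9 members were SEC61A1, SEC11C, SEC24C, SPCS3, RPN1, SEC23B, SSR4, SSR3 and SRPR. None was at least 2-fold higher, against 2.26% of all genes, and 28 were within 2-fold, as were 88.6% of all genes. At 3-fold, 3 members were lower (SEC61A1, SEC11C and SEC24C), where 3.3% of all genes were. At 1.5-fold, 19 members were lower, where 21.5% of all genes were, and none was higher, where 7.66% of all genes were. The members had a median log2 ratio of -0.59, and all genes had a median of -0.15. On the unscaled signals both medians turned above 0, to 0.13 for the members and 0.56 for all genes. The members' median minus that of all genes was -0.44, which a scaling factor leaves as it is. Of the 37 members, 31 had a log2 ratio below 0, where 61.4% of all genes did, and 28 lay below the median of all genes, where 50% lie by definition.

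**Figure D1:**
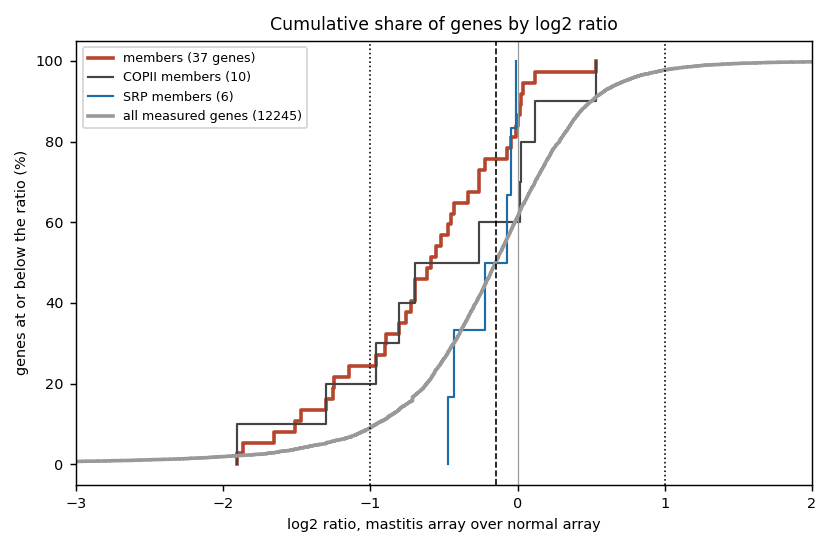
Cumulative share of genes (vertical axis, percent) at or below each log2 ratio of mastitis over normal (horizontal axis), for 37 members, 10 COPII members, 6 SRP members and 12245 measured genes. A dashed line at -0.15 shows the all-gene median, and 2-fold is dotted. The members' curve has its middle at -0.59, left of the dashed line, and the SRP curve stays between -0.47 and -0.009.

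Separate probes of a member mostly pointed the same way. Of 85 measured member probes, 74 had a log2 ratio below 0 (87.1%) and 11 had one above 0, while 58.4% of all named probes lay below 0. At least 2-fold lower were 19 of them (22.4%), beside 8.85% of all named probes, and no member probe was 2-fold higher. Among 24 members with at least 2 measured probes, 18 had every probe below the median of all genes (75%), where 28.4% of 6420 genes with as many probes did. SEC61A1, SSR4 and SEC11C had every probe at least 2-fold lower, which is 12.5% of the 24, beside 3.55% of the 6420 genes. Probes on both sides of 0 were found for SEC62, SEC11A, SEC23A and SEC24A. The other 13 members rested on a single measured probe, and of the 9 lowest members these were SSR3 and SPCS3.

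**Figure D2:**
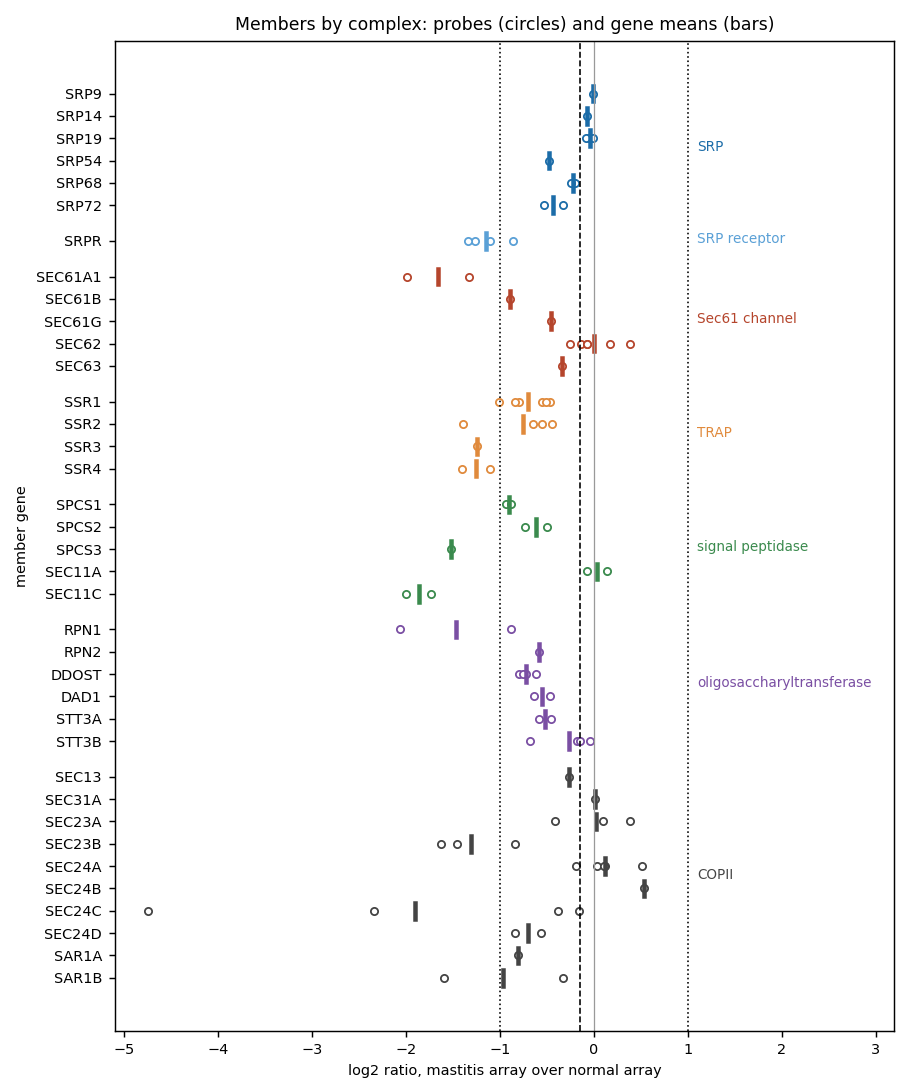
Log2 ratio of mastitis over normal (horizontal axis) for each of 37 measured members, grouped by complex. Each circle is a probe and each bar a gene mean, with the all-gene median (-0.15) dashed and 2-fold dotted. The SRP bars lie on both sides of the dashed line, all TRAP and OST bars lie left of it, and the 4 probes of SEC24C spread from -4.75 to -0.16.

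Of the genes of SRP itself, SRP9, SRP14 and SRP19 were at nearly the same level on both arrays, and SRP68, SRP72 and SRP54 had lower ratios. All 6 SRP genes were within 2-fold, their log2 ratios lay between -0.47 and -0.009, and their median of -0.15 was that of all genes. SRP9 and SRP14 form the pair that slows translation until the ribosome has docked. The single probe of SRP9 had a scaled signal of 0.36 in mastitis tissue and 0.36 in normal tissue, a log2 ratio of -0.009. That of SRP14 had 8.73 in mastitis tissue and 9.18 in normal tissue, a ratio of -0.072. SRP19, which helps to assemble the particle around its RNA, had a ratio of -0.045 with 3 probes in close agreement (SD 0.037). SRP68 and SRP72 bind each other and the SRP RNA, and had ratios of -0.22 (SD 0.032, 2 probes) and -0.43 (SD 0.14, 2 probes). The lowest of the 6 was SRP54, the GTPase that binds the signal sequence. Its probe, printed at 4 spots, gave net signals of 200, 203, 187 and 156 on the mastitis array and 169, 161, 151 and 151 at the same spots of the normal array. After scaling the ratio of their means was -0.47, with single spots between -0.67 and -0.38.

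SRPR (SRPRA in the current annotation), the GTPase subunit of the receptor that meets SRP at the membrane, stood apart from the particle. Its 4 probes had scaled signals of 14.9, 1.66, 1.36 and 0.19 on the mastitis array, against 27.2, 3.99, 2.92 and 0.47 on the normal array. Every probe was lower on the mastitis array, with log2 ratios between -1.34 and -0.86. The mean of -1.14 (SD 0.21) is a 2.21-fold lower level, at percentile 6.73 of all genes. It was within 2-fold with the normexp background correction (1.80-fold lower) and with spike-in scaling (log2 ratio -0.91).

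In the Sec61 channel the pore-forming subunit had the lowest ratio. SEC61A1 had scaled signals of 16.5 and 2.22 on the mastitis array, against 41.5 and 8.80 on the normal array. Both probes were lower, with log2 ratios of -1.33 and -1.99, and the gene was 3.16-fold lower (SD over probes 0.46). SEC61B, a small tail-anchored subunit, had 11.5 in mastitis tissue and 21.4 in normal tissue from its only measured probe, a log2 ratio of -0.89. The brighter SEC61A1 probe, at -1.33, lay below it by less than the pooled SD over probes, and with a probe near background kept SEC61B was at -1.80, below SEC61A1. The other small subunit, SEC61G, had 11.4 in mastitis tissue and 15.6 in normal tissue, a ratio of -0.45. SEC62 and SEC63 assist the channel with chains that arrive after translation. SEC62 had a mean log2 ratio of 0.003, with 6 probes between -0.26 and 0.38 (SD 0.23). For SEC63 the single probe had 1.70 in mastitis tissue and 2.14 in normal tissue, a ratio of -0.34. The 3 subunits of the channel thus lay between -1.66 and -0.45, and its 2 assisting proteins between -0.34 and 0.003.

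In the main setting each of the 4 TRAP genes was lower on the mastitis array by 1.5-fold or more, where 21.5% of all genes were. Their median log2 ratio was -1.0. With the normexp correction SSR1 and SSR2 were 1.43-fold and 1.39-fold lower. TRAP sits beside the Sec61 channel and helps certain signal sequences to open it. SSR4, its delta subunit, had scaled signals of 50.7 and 10.3 on the mastitis array, against 109 and 27.4 on the normal array. Both probes were more than 2-fold lower and the gene was 2.39-fold lower (SD 0.21), though it was within 2-fold with quantile normalization, at a log2 ratio of -0.82. The gamma subunit gene SSR3 had 3.74 in mastitis tissue and 8.88 in normal tissue from 1 measured probe, a 2.37-fold lower level. A second SSR3 probe did not exceed background in either tissue. SSR1, the alpha subunit, was measured by 6 probes whose log2 ratios ran from -1.01 to -0.47, with a mean of -0.70 (SD 0.22). SSR2, the beta subunit, had a mean of -0.76 (SD 0.43, 4 probes). Its 3 brighter probes lay between -0.64 and -0.44, and the dimmest, with a net signal of 30 in mastitis tissue and 48 in normal tissue, lay at -1.39.

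Signal peptidase held a gene near 0 and some of the lowest genes of the machinery. The complex has 1 of 2 catalytic subunits, SEC11A or SEC11C, together with the accessory proteins SPCS1, SPCS2 and SPCS3. SEC11C had scaled signals of 13.5 and 0.26 on the mastitis array, against 44.8 and 1.05 on the normal array. With a log2 ratio of -1.86 it was 3.64-fold lower (SD 0.19, 2 probes), at percentile 2.25 of all genes. SEC11A had 4.37 and 2.82 on the mastitis array, against 3.95 and 2.98 on the normal array. Its probes lay on both sides of 0 and its mean log2 ratio was 0.035 (SD 0.16). SPCS3, which holds the catalytic subunit in place, had 3.43 in mastitis tissue and 9.80 in normal tissue from its single probe and was 2.86-fold lower. SPCS1 and SPCS2 had log2 ratios of -0.90 (SD 0.035, 2 probes) and -0.61 (SD 0.17, 2 probes). The group median was -0.90.

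All 6 OST genes lay below the median of all genes, but 5 of them were within 2-fold. Their median log2 ratio was -0.57. RPN1, a subunit that presents substrates to the catalytic core, was 2.77-fold lower, but from 2 probes that disagree in size. The bright probe had a scaled signal of 14.6 in mastitis tissue and 26.9 in normal tissue, a log2 ratio of -0.88, and the dim one gave net signals of 11 (mastitis) and 28 (normal), a ratio of -2.06. With the normexp correction RPN1 was 1.64-fold lower. DDOST gave the closest agreement of any member with 4 probes, at ratios between -0.80 and -0.62 (mean -0.72, SD 0.077). RPN2 gave net signals of 525 in mastitis tissue and 481 in normal tissue, which after scaling is a ratio of -0.59 from 1 probe, and a second probe exceeded background in mastitis tissue alone, at net 8 there and 2 in normal tissue. DAD1, a small subunit needed for the stability of the complex, had a ratio of -0.55 (SD 0.12, 2 probes). The catalytic subunits STT3A, which works at the channel during translation, and STT3B, which acts on sites that were skipped, had ratios of -0.52 (SD 0.089, 2 probes) and -0.26 (SD 0.29, 4 probes).

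The COPII genes were the most mixed group. Their median log2 ratio was -0.48, and 2 of 10 were 2-fold lower or more, where 9.14% of all genes were. At 1.5-fold, 5 were lower, where 21.5% of all genes were, and none was higher, where 7.66% of all genes were. In the outer coat SEC13 had a scaled signal of 17.1 in mastitis tissue and 20.5 in normal tissue, and SEC31A had 1.60 in mastitis tissue and 1.59 in normal tissue. Their log2 ratios were -0.26 and 0.017, each from a single probe. The GTPase genes SAR1A and SAR1B had ratios of -0.81 and -0.96. The SAR1A probe was printed at 4 spots, all between -0.88 and -0.74, while the SAR1B probes lay at -0.33 and -1.60. In the inner coat SEC23A had a mean of 0.026 (SD 0.41, 3 probes with net signals of 16 to 81 in mastitis tissue and 13 to 46 in normal tissue), and SEC23B one of -1.30 (SD 0.41, 3 probes), a 2.47-fold lower level.

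The SEC23B probes differed widely in brightness. The brightest had scaled signals of 1.77 in mastitis tissue and 3.16 in normal tissue, a log2 ratio of -0.84, and the other 2 gave net signals of 8 and 9 (mastitis) against 15 and 15 (normal), close to the background thresholds of 7.10 for mastitis and 8.74 for normal. With the normexp correction the gene was 1.52-fold lower. The SEC24 genes encode the subunit that selects cargo. SEC24B had 0.79 in mastitis tissue and 0.55 in normal tissue from a single probe, the highest log2 ratio of all members at 0.53, at percentile 91.0 of all genes. SEC24A followed at 0.12 (SD 0.25, 5 probes). SEC24D had ratios of -0.56 and -0.84, with a mean of -0.70.

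SEC24C had the lowest mean of all members, -1.91, and also the least agreement among its probes (SD 2.13). Its 4 probes had scaled signals of 9.11, 0.71, 0.14 and 0.086 on the mastitis array, against 10.1, 3.61, 0.18 and 2.30 on the normal array. The brightest probe was nearly equal on both arrays, with a log2 ratio of -0.16, and another lay at -0.38. The remaining probes lay at -2.34 and -4.75. The call of at least 2-fold lower for SEC24C therefore rested on 2 of its 4 probes, and on the brightest probe alone the gene was within 2-fold.

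**Figure D3:**
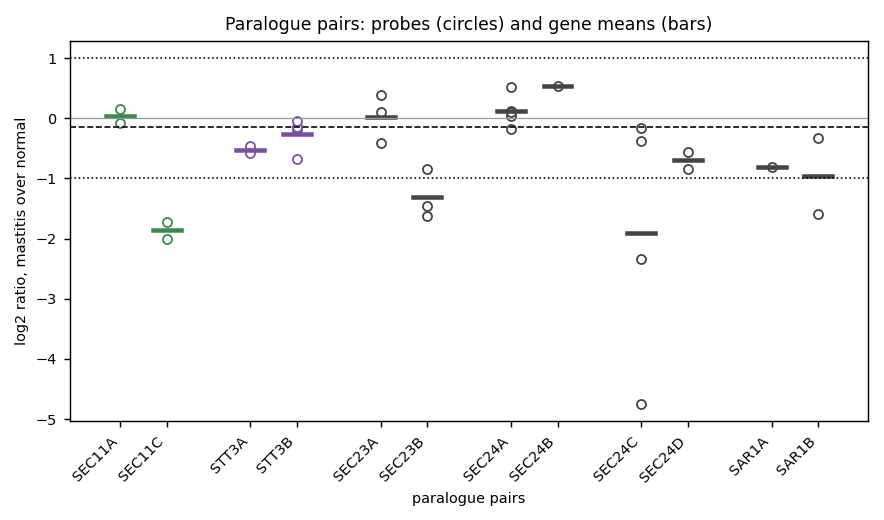
Log2 ratio of mastitis over normal (vertical axis) for 6 pairs of related genes. Probes are circles and gene means bars, with -0.15 (all genes) dashed and 2-fold dotted. The probes of SEC11A lie above those of SEC11C and the probes of SEC23A above those of SEC23B without overlap, while those of SAR1A and SAR1B overlap.

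Of 6 pairs of related genes, SEC11A and SEC11C, and SEC23A and SEC23B, differed without overlap of their probes by more than the pooled SD over probes, and 3 pairs differed by less than that SD. The difference of 2 log2 ratios is the same under any scaling factor. SEC11A was above SEC11C by 1.90 on the log2 scale, a 3.73-fold difference in ratio and 4.24 times the pooled SD over probes, and the probes of the pair did not overlap. Over the other settings that kept each probe with its own values it lay between 1.55 (normexp) and 1.90. SEC23A was above SEC23B by 1.33, again without overlap of probes, but by 0.47 with normexp. SEC24A lay 0.41 below SEC24B, and STT3A lay 0.26 below STT3B, both less than the pooled SD over probes. SAR1A and SAR1B differed by 0.16, and their probes overlapped. SEC24C minus SEC24D was -1.21, but 0.40 with the brightest probe of each gene. Among these 6 pairs the signal peptidase pair had the widest gap.

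**Figure D4:**
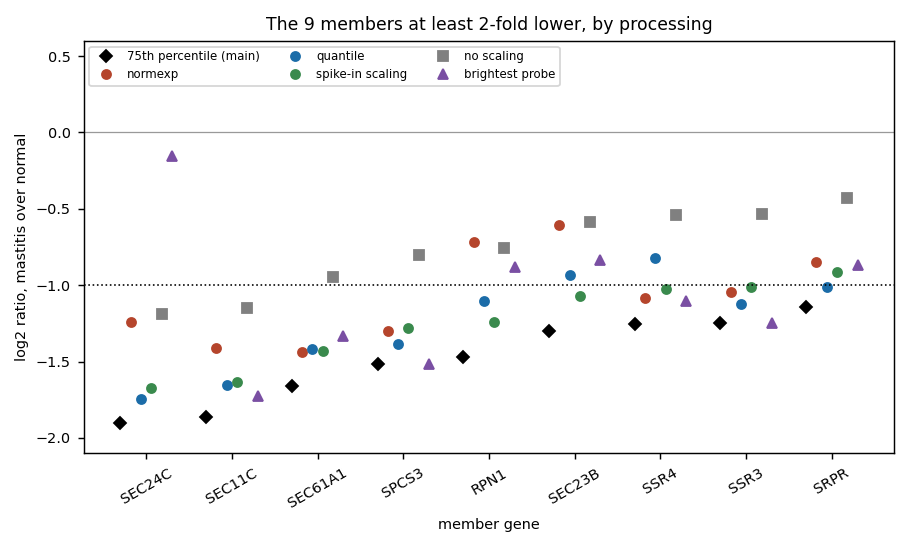
Log2 ratio of mastitis over normal (vertical axis) of the 9 members that were at least 2-fold lower, under the main scaling and 5 other settings. The dotted line marks 2-fold. SEC11C lies below the dotted line in every setting shown, while SEC24C rises to -0.16 with the brightest probe.

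How far the 9 lowest members depended on the processing differed by gene. SEC11C was at least 2-fold lower in all 15 alternatives that kept each probe with its own values. SEC61A1, SSR3, SPCS3 and SEC24C were so in 14 of them, SSR4 in 12, RPN1 in 11, SRPR in 10 and SEC23B in 9. The alternatives are not independent checks, and some could not change a call. No member probe held saturated pixels, and SSR3 and SPCS3 rest on 1 measured probe each, which summaries over probes leave as it is. With normexp 6 of the 9 were at least 2-fold lower, where 3.25% of all genes were, and with the brightest probe of each gene 5 were (SEC61A1, SSR3, SSR4, SPCS3 and SEC11C), where 9.30% of all genes were.

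Genes that work beside these complexes had medians between those of the members and of all genes. Of 11 further translocon and OST genes, 8 were measured and 2 were 2-fold lower or more (25%, beside 9.14% of all genes). None was as much higher, and their median log2 ratio was -0.28. TRAM1, a membrane protein beside the Sec61 channel, was the lowest (2.70-fold lower, 1 probe). KRTCAP2, a subunit of the STT3A form of OST and named after its value was seen, was 2.14-fold lower (SD 0.39, 3 probes). SEC61A2, the second gene for the channel subunit, was the highest at 0.38 (SD 0.25, 3 probes), where SEC61A1 had -1.66. Of 27 measured COPII regulators, cargo receptors and fusion proteins, 3 were 2-fold lower or more (11.1%, near the 9.14% of all genes), with none as much higher and a median of -0.46. TMED3, of a family of cargo adaptors, was the lowest (2.62-fold lower, SD 0.20, 3 probes). LMAN1, a receptor for glycoprotein cargo, and the fusion protein gene YKT6, both named after their values were seen, were 2.09-fold and 2.05-fold lower. SEC23IP, whose product binds SEC23, was the highest at 0.27. SEC16B exceeded background in normal tissue alone, at net 7 in mastitis tissue and 15 in normal tissue, and no ratio is given for it.

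The COPI coat, which returns vesicles from the Golgi to the ER, had mostly smaller ratios. All 17 listed genes of COPI and ER retrieval were measured, with a median log2 ratio of -0.32. At 1.5-fold or more, 5 were lower, where 21.5% of all genes were. Past 2-fold, where 9.14% of all genes were, 1 gene was lower. This was ARF3, 2.24-fold lower from a dim probe at net 11 in mastitis tissue and 15 in normal tissue. ARF5 was the highest, at 1.65-fold higher from 1 probe. The 9 coat genes ran from COPZ1 at -0.87 to COPZ2 at -0.016, both named after their values were seen.

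**Figure D5:**
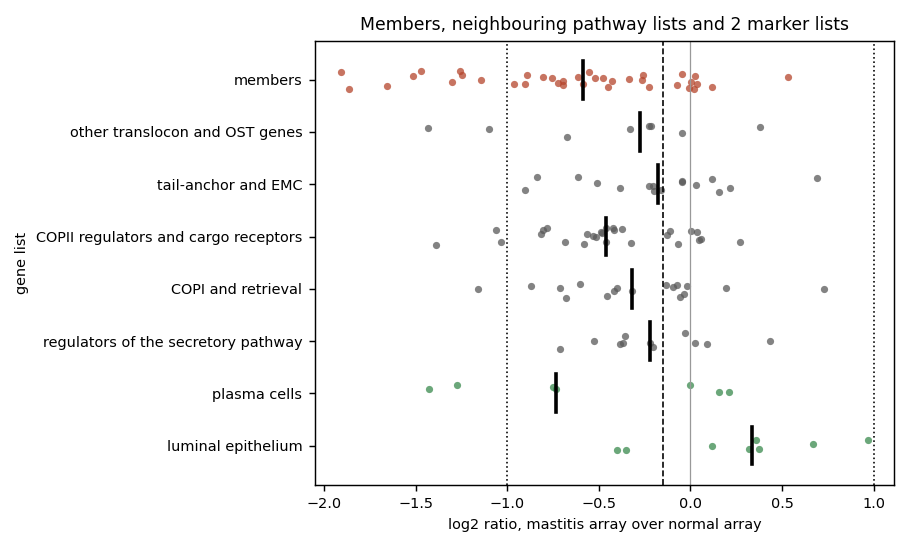
Log2 ratio of mastitis over normal (horizontal axis) of the measured genes of 8 lists. Each point is a gene, jittered vertically, bars give list medians, -0.15 (all genes) is dashed and 2-fold dotted. The bars of the members (-0.59), of the COPII regulators and cargo receptors (-0.46) and of the plasma cell markers (-0.73) lie left of the dashed line, and that of the luminal epithelial markers (0.34) lies right of it.

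Markers of cell types moved with the members in part. Of 8 listed markers of secretory alveolar cells, 7 were measured on both arrays and all 7 were 2-fold lower or more. Their summed scaled signal was 73.7 in mastitis tissue and 2797 in normal tissue, and LALBA did not exceed background in mastitis tissue. GLYCAM1 had the lowest log2 ratio of the list at -11.27, from 1 of its 2 probes, and ELF5 the highest at -2.22. The median net signal of the GLYCAM1 probes was 18 in mastitis tissue and 39345 in normal tissue. Median net signals of this list reached 60840 in normal tissue (CSN3), and saturation of its probes is not described here. Markers of luminal epithelium did not follow them, since none of 8 was at least 2-fold lower, with a median log2 ratio of 0.34 and a summed scaled signal of 87.7 in mastitis tissue and 95.0 in normal tissue. KRT18 was the highest, 1.96-fold higher, and KRT19 the lowest, at -0.40. Of 7 measured plasma cell markers, 2 were at least 2-fold lower, with a sum of 26.1 in mastitis tissue and 33.4 in normal tissue. FKBP11, an ER foldase gene, was the lowest (2.68-fold lower, SD 0.013, 2 probes) and JCHAIN, the joining chain of antibodies, the highest at 0.21. MZB1, an ER protein of antibody-secreting cells named after its value was seen, was 2.42-fold lower. The rest of the list was within 2-fold, with log2 ratios of 0.15 for PRDM1, -0.0006 for SDC1, -0.73 for POU2AF1 and -0.75 for DERL3.

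Neutrophil markers were lower as well, with 6 of 6 measured genes at least 2-fold lower and sums of 9.47 in mastitis tissue and 30.2 in normal tissue, while CXCR2 and MPO exceeded background in neither tissue. The log2 ratios ran from -4.09 for CXCR1 to -1.15 for S100A9, each from 1 measured probe. The median net signal of the 3 CXCR1 probes was 6 in mastitis tissue, below the background threshold of 7.10. By its histology the study described inflammatory cells in the glands with mastitis. Of 5 measured macrophage markers 1, CD163, was at least 2-fold higher (3.40-fold, 1 probe), with sums of 17.4 in mastitis tissue and 14.0 in normal tissue. CD14 was the lowest, 1.70-fold lower (SD 0.51, 3 probes), and the list had a median of 0.44. Of 7 fibroblast markers 1, COL3A1, was at least 2-fold lower, with sums of 34.7 in mastitis tissue and 27.6 in normal tissue. Of these 7 genes 3 were 1.5-fold higher or more, PDGFRB was the highest at 0.92, and the median was 0.49. The T cell markers had sums of 10.0 in mastitis tissue and 9.19 in normal tissue, with all 6 within 2-fold, from CD2 at -0.99 to CD5 at 0.84. ADIPOQ exceeded background in neither tissue and PLIN1 in mastitis tissue alone. The adipocyte list had sums of 61.7 in mastitis tissue and 57.2 in normal tissue, nearly all from FABP4 (61.6 in mastitis tissue and 56.9 in normal tissue, a log2 ratio of 0.12). The other 2 measured adipocyte genes were at least 2-fold lower, LEP at -1.63 and CIDEC, named after its value was seen, at -1.61. The part of these cell types in the ratios of the members was not tested.

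Some members lie near each other in the RefSeq gene order of cattle, and neighbours had like and unlike ratios. On chromosome 22, RPN1 and SEC61A1 have 4 protein-coding genes between them and log2 ratios of -1.47 and -1.66. SAR1B and SEC24A, on chromosome 7 with 1 protein-coding gene between them, had ratios of -0.96 and 0.12. SEC61G and STT3B, with 9 such genes between them on chromosome 22, had -0.45 and -0.26. The means of RPN1 and SAR1B come from probes that differ, at -0.88 and -2.06 for RPN1 and at -0.33 and -1.60 for SAR1B. Pairs further apart are not listed.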

How the data were processed

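Each array held 45220 spots with 153 negative controls. The authors deposited, per spot, the intensity at 532 nm read with GenePix Pro 6.1, less 1 background value per array (26 for mastitis, 24 for normal) and unscaled. These values are the rounded mean of the dark corner spots (25.6 and 24.4). The authors also deposited a percent of saturated pixels and a flag score per spot, and a table of log2 values of unstated method. The file headers name an Agilent bovine array of design 023647, the processing notes Agilent Feature Extraction and the methods an Affymetrix chip.

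The spots of a probe were averaged, flagged or not, and each array was divided by the 75th percentile of all its probes. A probe with every spot flagged as not found on an array did not count as measured. A RefSeq gene table of cattle gave names to 43653 probes as far as it could: 26743 through an accession, 5971 through a symbol, 141 through an older symbol. The file's own name was used for 1662, and 9136 stayed unnamed. The fold threshold of 2 is the one the study used. All members are named, and the highest and lowest gene of each other list. Members were matched by symbol alone, but the set of genes and the lists were chosen with earlier results of these data known. Alternatives were normexp (limma 3.58.1, R 4.3.3, offset 50), other scalings, filters, probe summaries and thresholds, and the deposited table. Versions were numpy 2.4.6, scipy 1.17.1, matplotlib 3.10.9, pandas 2.3.3 and Python 3.11.15, and the scripts were tested on simulated data. The precision is limited by 1 array per condition. A search of promoters for motifs was planned but no sequence was analysed here.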

Additional observations from a re-analysis of the deposited data

How the results depend on the processing

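With 1 array per condition no array could be left out, and dim probes limit SEC23B and RPN1, and disagreement between probes limits SEC24C. No paired analysis was possible because each condition has 1 array. Of 549 values of single members under 15 alternatives, 496 moved by less than the pooled SD over probes and 53 by more. These counts follow in part from the settings themselves. Leaving out the scaling moved every member by 0.71, which is more than that SD. Leaving out saturated probes could move no member, since no member probe held saturated pixels. Other summaries over probes could not move the 13 members on a single measured probe. The alternatives of a net signal of at least 50, of negative controls subtracted and of the deposited table moved by 1 probe were chosen after seeing the data. The members' median stayed below that of all genes in those 15, by 0.19 (no filter on dim probes) to 0.51.

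The count of 9 members at least 2-fold lower was 5 with the brightest probe, 19 at 1.5-fold and 3 at 3-fold. Without scaling it was 2, with 1 higher, and the medians were 0.13 (all members), 0.57 (SRP), -0.43 (SRPR), 0.26 (Sec61), -0.29 (TRAP), -0.19 (signal peptidase), 0.14 (OST) and 0.24 (COPII). The count of all genes at least 2-fold lower, 1119, was 398 with normexp, 4035 of 16959 (23.8%, with 10 of 37 members) with dim probes kept, 745 with quantile normalization, 730 with spike-in scaling, 322 without scaling and 522 with a net signal of at least 50. Of all genes, 277 were at least 2-fold higher in the main setting, against 454 without the filter, 95 with normexp, 429 with quantile normalization, 420 with median scaling, 541 with spike-in scaling, 455 with the moved table and 2454 without scaling.

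SEC23A minus SEC23B was 0.47 with normexp. SEC24C minus SEC24D was -0.74 with normexp, -0.66 with the median over probes, -0.55 with a net signal of at least 50 and 0.40 with the brightest probe. SAR1A minus SAR1B was -0.48 with the brightest probe and with a net signal of at least 50.

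The deposited table, read at the probe named in its row, had a Spearman correlation with the scanner signal of 0.10 (mastitis) and 0.097 (normal), and of 0.9998 (mastitis) and 1 (normal) when its rows were moved by 1 probe. A value in a named row thus follows the signal of another probe, and the values read as named are not those of the members. As named, the table gave 3 of 37 members lower and 7 higher, where 11.5% of all genes were lower and 12.3% higher. The medians were then 0.24 (all members), 1.45 (SRPR), 0.60 (Sec61), -0.36 (TRAP), 0.76 (signal peptidase), 0.26 (OST) and 0.27 (COPII). Rows named for these genes gave log2 ratios of 1.45 (SRPR), 1.25 (SPCS3), 0.065 (RPN1), 0.48 (SEC23B) and 1.88 (SEC24C). Differences read in this way were 2.97 for SEC11A minus SEC11C, 0.27 for SEC23A minus SEC23B, 1.16 for SEC24A minus SEC24B and 1.60 for SEC24C minus SEC24D. Moved by 1 probe, the table gave 7 members lower, all among the 9, where 6.4% of all genes were lower.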

Other observations

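Genes of the other route into the ER membrane, which serves tail-anchored and multi-pass proteins through the GET proteins and the ER membrane complex (EMC), were all within 2-fold. All 16 listed genes were measured, with a median log2 ratio of -0.18, beside -0.15 for all genes. EMC9 was the lowest at -0.90 and CAMLG, a receptor of the GET route, the highest at 0.69, with probes that differed (SD 0.60, 2 probes). Regulators of the secretory pathway also had small ratios, with 11 of 15 measured, none past 2-fold and a median of -0.22. MBTPS2 and MBTPS1, the proteases that release ATF6 and its relatives from the membrane, were the lowest and the highest of them at -0.71 and 0.44, each from 1 probe. XBP1, a transcription factor of the unfolded protein response that was named after its value was seen, had a ratio of -0.53 with 3 probes in agreement (SD 0.063).

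Within a member, the dimmest measured probe tended to have a lower log2 ratio than the brightest. This was so for 20 of 24 members with at least 2 measured probes (83.3%), with a median difference of -0.25, and for 63.2% of 6420 genes in all, with a median difference of -0.12. The widest gaps among members were those of SAR1B (-1.27), RPN1 (-1.18), SSR2 (-0.84) and SEC23B (-0.78), and SEC62 had the widest gap the other way (0.52). Negative control spots kept a mean net signal of 1.95 in normal tissue, against 0.013 in mastitis tissue. With these means subtracted, the gene ratios of RPN1, SEC23B and SAR1B moved from -1.47, -1.30 and -0.96 to -1.44, -1.19 and -0.93. The gene ratio of SSR2 stayed at -0.76. The cause of the lower ratios of dim probes was not tested.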
